A study of Mus musculus with 6 samples.

Results

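The mRNAs of 8 genes of the pluripotency network were followed in mouse embryonic stem cells while protein synthesis was blocked. They were the transcription factor genes Pou5f1, Sox2, Nanog and Sall4, the RNA-binding protein gene Lin28a, and the OCT4 and SOX2 target genes Utf1, Fgf4 and Tdgf1. They were picked by symbol from the deposited count tables, which list 17485 genes. All 8 passed the filter on low counts that left 12755 genes for testing. At 3 h of cycloheximide Sox2 was the 1 member called higher, and at 6 h Utf1 and Fgf4 were called lower. Of all 12755 genes, 3.60% were called higher at 3 h and 14.3% lower at 6 h. The Sox2 call was lost without either 3 h library, and the Utf1 call when counts were scaled by library size alone. The mRNAs of Pou5f1, Nanog, Sall4, Lin28a and Tdgf1 passed the test in none of the 3 comparisons.

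OCT4, the product of Pou5f1, and SOX2 bind DNA side by side on composite sites, and with NANOG and SALL4 they activate their own genes and one another as well as genes that keep embryonic stem cells undifferentiated. LIN28A binds mRNAs and the precursors of let-7 microRNAs and keeps the latter from maturing. UTF1 is a chromatin-bound protein of pluripotent cells, FGF4 is a secreted growth factor that stem cells make and respond to through the ERK kinases, and TDGF1 (CRIPTO) is a membrane-anchored co-receptor for NODAL. Cycloheximide stops the elongation step of translation, so proteins that turn over quickly are not replaced during treatment.

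The cells were E14 mESCs, an established line of 129/Ola background, kept in serum with leukaemia inhibitory factor on gelatinized wells. Cycloheximide at 250 µg/mL was added 24 h after seeding for 3 h or 6 h. Control cells received the solvent, 0.007% ethanol, which the treated cells also had, but for 9 h, so drug and hours of exposure cannot be told apart in the comparisons with control. Polyadenylated RNA was sequenced from 2 libraries per group, 6 in all. Nothing in the labels says that the libraries of a group came from separate cultures, so p-values measure only the spread between these libraries. The series calls the data bulk while its design text mentions single cells; each file holds 1 column of counts and was read as 1 bulk library.

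Libraries held between 9385447 and 27351079 counts, with the control and 3 h totals overlapping and the 6 h libraries the deepest. Mitochondrial transcripts took 24.7% and 24.9% of control counts, 19.6% and 18.9% at 3 h, then 17.4% and 16.6% at 6 h. All 9 markers of mouse embryonic stem cells were present, with a summed level of 6263 and 6468 CPM in control, 7804 and 8175 at 3 h, then 5548 and 5843 at 6 h. Sox2 is the largest of those markers, and the 6 that are not members summed to 3824 and 3721 in control, 3804 and 4071 at 3 h, then 3071 and 3337 at 6 h. CPM here are counts scaled to a common library total by the trimmed mean of M values (TMM), and every level below is on that scale unless another is named. The 2 libraries of each group differed by more than counting noise (chi-square per degree of freedom 18.7 to 27.7). In bulk RNA, fewer cells of a type and less RNA per cell cannot be told apart.

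Promoter sequences are shown for Sox2, Utf1 and Fgf4, whose mRNAs were called changed, and for Nanog, whose promoter is the textbook case of joint OCT4 and SOX2 binding. They come from RefSeq on GRCm38.p6 and are printed 5′ to 3′ on the gene's strand over the 250 bases before the start annotated in RefSeq. Capitals mark a POU motif and GC boxes in Sox2, the SOX-POU composite in Nanog, and GC boxes in Utf1 and Fgf4. The stretches are chr3:34649745-34649994 for Sox2, chr6:122707239-122707488 for the upstream of the Nanog starts, chr7:139943606-139943855 for Utf1 and chr7:144861136-144861385 for Fgf4, all on the plus strand. RefSeq starts are not all the starts of the GENCODE gene coordinates given below. By those coordinates the Sox2 stretch ends before the gene, the Utf1 stretch runs into it, and the Fgf4 stretch lies inside it.
Sox2: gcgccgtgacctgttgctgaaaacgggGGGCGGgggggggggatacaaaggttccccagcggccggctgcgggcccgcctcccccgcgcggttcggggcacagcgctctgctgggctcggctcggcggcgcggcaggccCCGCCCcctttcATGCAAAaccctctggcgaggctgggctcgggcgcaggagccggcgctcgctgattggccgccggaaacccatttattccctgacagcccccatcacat
Nanog: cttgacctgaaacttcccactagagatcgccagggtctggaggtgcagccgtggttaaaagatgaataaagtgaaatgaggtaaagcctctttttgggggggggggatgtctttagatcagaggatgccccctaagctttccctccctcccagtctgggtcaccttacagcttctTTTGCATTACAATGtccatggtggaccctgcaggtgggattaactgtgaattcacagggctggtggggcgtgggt
Utf1: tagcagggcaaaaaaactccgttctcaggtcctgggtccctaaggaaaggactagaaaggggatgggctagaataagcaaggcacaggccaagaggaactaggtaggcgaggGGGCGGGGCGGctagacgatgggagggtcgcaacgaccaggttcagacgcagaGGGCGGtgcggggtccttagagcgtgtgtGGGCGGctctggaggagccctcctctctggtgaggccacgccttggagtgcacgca
Fgf4: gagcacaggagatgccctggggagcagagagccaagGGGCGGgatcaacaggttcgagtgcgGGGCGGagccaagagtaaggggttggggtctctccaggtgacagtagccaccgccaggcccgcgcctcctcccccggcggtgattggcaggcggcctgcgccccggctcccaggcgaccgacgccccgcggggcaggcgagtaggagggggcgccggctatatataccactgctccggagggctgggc

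RefSeq windows, each from 250 bases before to 50 bases after a start, were found for 7 of the 8 genes, giving 9 windows because Pou5f1 and Nanog have 2 starts each; Sall4 had no entry. Both strands were searched for a SOX core (CATTGT), a POU motif (ATGCAAA), the composite of the 2 in that order with 1 base of any kind between them, a GC box (GGGCGG) and a TATA box (TATAAA). The composite contains both the SOX core and the POU motif, so its matches count under all 3. It was found only in Nanog, 62 to 75 bases before the upstream start, and the 2 overlapping Nanog windows were the only 2 of all 32851 mouse windows of this length that held it (0.00609%). The SOX core was found in 4 of the 9 windows (Pou5f1, Nanog and Lin28a) against 12.6% of all windows, and the POU motif in 3 of the 9 (Sox2 and Nanog) against 4.63%. The same Nanog site is counted in both of its windows. By gene, the SOX core was in 3 of the 7 and the POU motif in 2.

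GC boxes were found in 6 of the 9 windows, in each gene but Nanog, against 35.7% of all windows. Utf1 had 4, of which 2 share a base, and Fgf4 had 2. The exact word TATAAA was found in 0 of the 9 windows against 13.6% of all windows; variants of it were not searched, and the Fgf4 stretch above has a run of alternating t and a near its end. A match is a description of the letters, not of a bound site, and no match says only that these letters are not in this window. The well-known OCT4 and SOX2 elements of Fgf4 and Utf1 lie downstream of their coding sequences, outside the windows searched.

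**Figure D1:**
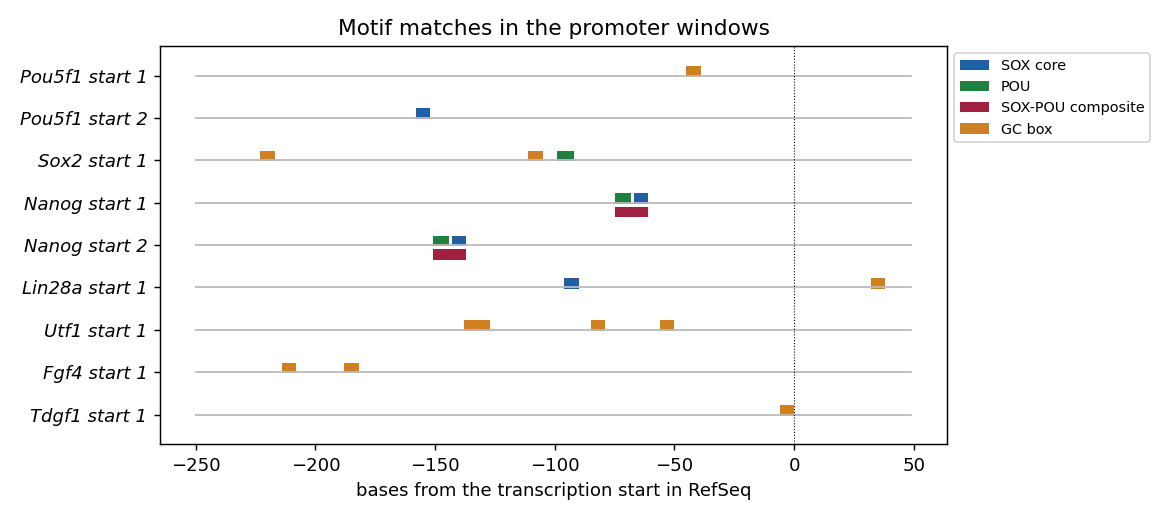
Motif matches in the RefSeq promoter windows of the 7 genes with an entry, 1 line per annotated start, in bases from the start (dotted line at 0). Coloured boxes mark the SOX core, the POU motif, their composite and GC boxes on either strand; the composite is seen in Nanog alone, and Utf1 has the most GC boxes.

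Sox2 was the most abundant of the 8 mRNAs when counts were divided by transcript length. In the control libraries it averaged 1187 CPM per kb, followed by Utf1 with 865, Sall4 with 114, Pou5f1 with 106, Lin28a with 91.0, Tdgf1 with 71.7, Fgf4 with 61.9 and Nanog with 3.62. The order of the group means was the same at 3 h and 6 h. Sall4, at 99.8 and 129 CPM per kb in the 2 control libraries, overlapped Pou5f1, at 100 and 112; the other neighbours in the order did not overlap, though Tdgf1 (64.5 and 79.0) and Fgf4 (60.5 and 63.4) came close. Lengths are those of the GENCODE transcript used for each gene, and where along the transcripts the reads lay is not stated in the sources used here.

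The members' summed level was 4676 and 5083 CPM in control, 5907 and 6010 at 3 h, then 4158 and 4104 at 6 h. Sox2 made up 48.8% and 51.2% of the members' counts in control, 65.1% and 65.8% at 3 h, then 56.2% and 57.9% at 6 h. The sum was highest at 3 h, as Sox2 was, and the 3 groups did not overlap in either measure. Without TMM, the members took 0.409% and 0.443% of counts in control, 0.598% and 0.621% at 3 h, then 0.461% and 0.463% at 6 h. There too 3 h was highest, but 6 h lay above control, so the direction of the sum at 6 h against control depended on the scaling.

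**Figure D2:**
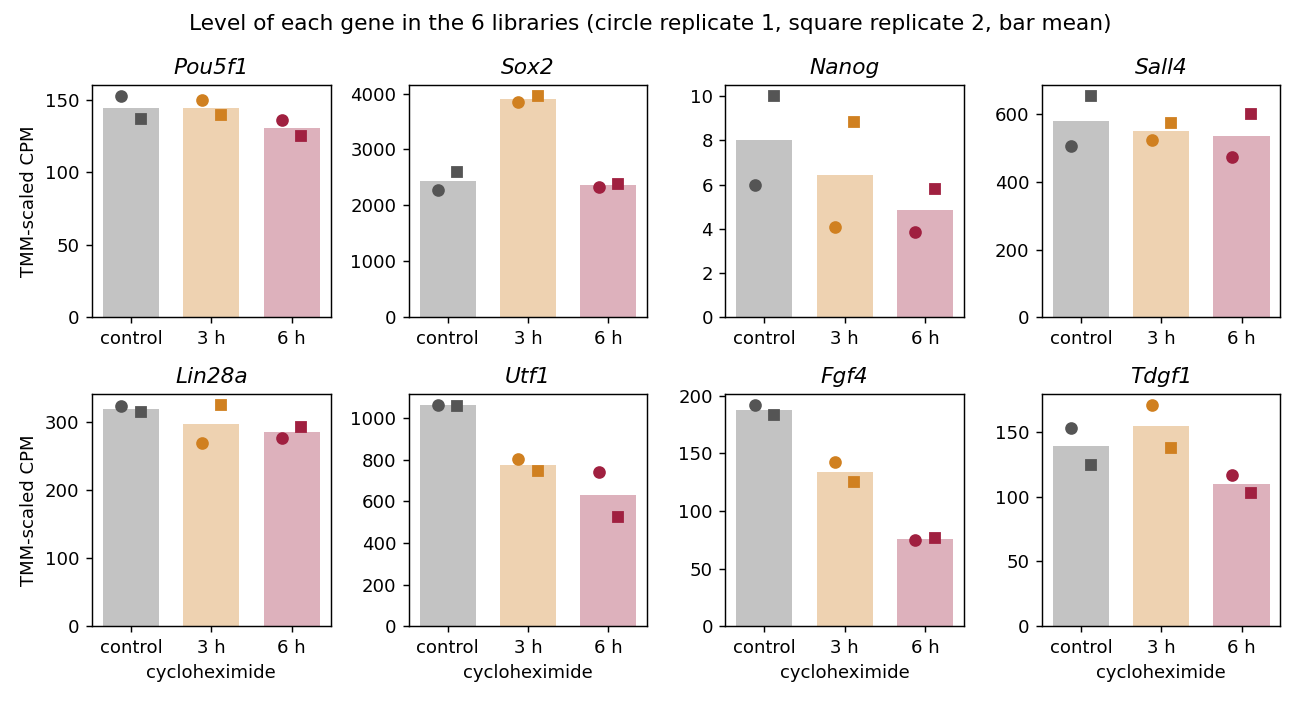
TMM-scaled CPM of the 8 genes in control cells and after 3 h or 6 h of cycloheximide, each panel with its own axis from 0; circles and squares are replicates 1 and 2, and bars are means of 2 libraries. Sox2 stands highest at 3 h and lies within the control range at 6 h, Utf1 and Fgf4 lie below control at 6 h, and the other 5 genes were called in no comparison.

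Among the 8 genes, 1 was called higher and 0 lower at 3 h against control, at an adjusted p under 0.05 from edgeR's quasi-likelihood test. Over all 12755 tested genes, 3.60% were called higher and 1.30% lower in that comparison. At 6 h against control 0 of the 8 were called higher and 2 lower, against 14.8% and 14.3% of all genes. Between treatment times, 6 h against 3 h, 0 were higher and 2 lower, against 0.455% and 1.18% of all genes. With so few genes these counts describe the 8, and nothing particular to the group is read from them. The median log2 fold change of the 8 was -0.09 at 3 h, -0.25 at 6 h and -0.36 from 3 h to 6 h, where all tested genes had medians of 0.02, 0.04 and 0.01. Scaled by library size only, these medians became 0.14, 0.10 and -0.23 for the 8 and 0.25, 0.40 and 0.13 for all genes, so the sign of the 8's median against control depended on the scale. Single members lay on either side of the median of all genes, Sox2 and Tdgf1 above it at 3 h.

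**Figure D3:**
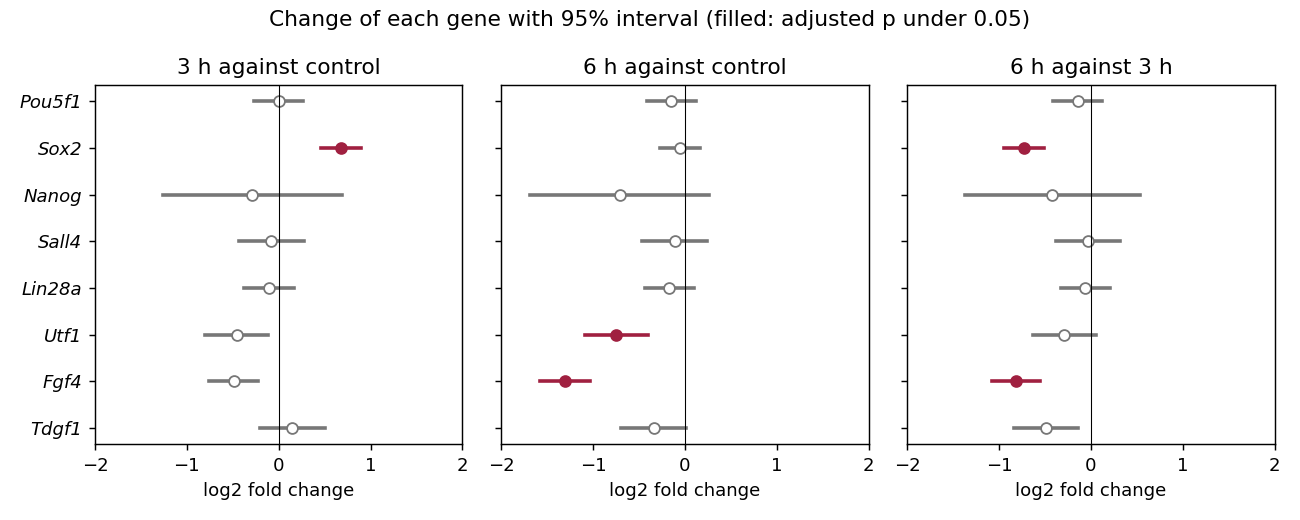
Log2 fold change of the 8 genes in the 3 comparisons with 95% intervals of the fit over 6 libraries; filled points passed an adjusted p of 0.05. Sox2 lies above 0 at 3 h and below 0 from 3 h to 6 h, Utf1 and Fgf4 lie below 0 at 6 h, and the Nanog intervals are the widest.

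Pou5f1 encodes OCT4 and lies at chr17:35506018-35510772 on the plus strand (GENCODE gene, GRCm38), with 5 exons in a transcript of 1362 bases. Its mRNA stood at 152 and 136 CPM in control, 150 and 139 at 3 h, then 136 and 125 at 6 h. The 3 h libraries lay within the control range, and the higher 6 h library was just below the lower control. The log2 fold change at 3 h was 0.00 ± 0.12 (SE; adjusted p = 1), with a 95% interval from -0.27 to 0.27, and at 6 h it was -0.14 ± 0.12 (adjusted p = 0.390), with an interval from -0.41 to 0.12. Changes inside those intervals could not be seen with 2 libraries per group.

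Sox2, the single-exon gene of OCT4's partner, lies at chr3:34650405-34652461 on the plus strand; only 2.34% of the 11578 tested genes with a matched coding transcript have 1 exon. Its mRNA was at 2281 and 2601 CPM in control, rose to 3847 and 3956 at 3 h, and was at 2337 and 2376 at 6 h. Both 3 h libraries lay above every control and 6 h library, and the 6 h libraries lay between the 2 controls. The rise at 3 h was 1.60-fold, a log2 fold change of 0.68 ± 0.09 (SE; adjusted p = 0.00841), and stood at rank 101 of 12755 genes by p. At 6 h the difference from control was -0.05 ± 0.09 (adjusted p = 0.720), with an interval from -0.26 to 0.16.

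From 3 h to 6 h Sox2 fell by 0.73 on the log2 scale (SE 0.09; adjusted p = 0.0106), and only 5.61% of the genes tested had a lower value. These counts were the best determined of the 8, with 21295 to 70858 per library. Relative to Pou5f1 in the same library, a ratio that no scaling can move, Sox2 counts were 15.0 and 19.1 times as many in control, 25.7 and 28.4 times at 3 h, and 17.2 and 19.0 times at 6 h. The 3 h ratios lay above all others. The call at 3 h was lost without the first 3 h library (0.69, adjusted p = 0.0625) or the second (0.66, adjusted p = 0.0694), and the call between times was lost without any 1 of the 3 h or 6 h libraries (-0.74 to -0.71, adjusted p = 0.0771 to 0.118). Sox2 was called higher at 6 h as well with library size alone (0.31, adjusted p = 0.0361).

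Nanog, a homeobox factor whose protein turns over fast, lies at chr6:122707489-122714633 on the plus strand. It was scarce in these libraries, with 81 and 82 counts in control, 63 and 153 at 3 h, then 117 and 152 at 6 h. On the CPM scale this is 6.00 and 10.01, then 4.07 and 8.84, then 3.86 and 5.82. The groups overlapped, and replicate 2 was above replicate 1 in all 3 groups. The log2 fold change was -0.29 ± 0.43 (SE; adjusted p = 0.722) at 3 h and -0.71 ± 0.43 (adjusted p = 0.244) at 6 h. The intervals, -1.26 to 0.69 and -1.68 to 0.26, were the widest of the 8, so at this depth neither a fall of more than 2-fold nor a rise at 3 h was distinguishable from no change.

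Sall4 encodes a zinc-finger factor that works with the NuRD deacetylase complex, and lies at chr2:168748332-168767943 on the minus strand. Its mRNA was at 506 and 654 CPM in control, 524 and 574 at 3 h, then 474 and 600 at 6 h. The 3 h libraries lay within the control range and the 6 h libraries spanned nearly as wide a range as the controls. The log2 fold change was -0.08 ± 0.15 (SE; adjusted p = 0.798) at 3 h and -0.11 ± 0.15 (adjusted p = 0.625) at 6 h, with intervals from -0.43 to 0.27 and -0.46 to 0.24.

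Lin28a lies at chr4:134003330-134018841 on the minus strand, and its transcript has the longest 3′ UTR of the 8, with 2775 bases and 5 ATTTA words. It stood at 323 and 315 CPM in control, 269 and 324 at 3 h, then 276 and 292 at 6 h. The 3 h libraries spanned the range of all 6, and both 6 h libraries lay below both controls. The log2 fold change was -0.10 ± 0.12 (SE; adjusted p = 0.628) at 3 h and -0.17 ± 0.12 (adjusted p = 0.321) at 6 h, with intervals from -0.37 to 0.16 and -0.43 to 0.10.

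Utf1 lies at chr7:139943789-139945112 on the plus strand, a compact gene of 2 exons whose transcript of 1227 bases has a 3′ UTR of 122 bases and no ATTTA word. Its mRNA was at 1062 and 1060 CPM in control, 801 and 744 at 3 h, then 739 and 526 at 6 h. The groups did not overlap, the controls were nearly equal, and the 6 h libraries were the farthest apart. The 6 h level was 1.68-fold lower than control, a log2 fold change of -0.75 ± 0.15 (SE; adjusted p = 0.00835). At 3 h the value was -0.46 ± 0.15 (adjusted p = 0.110), and from 3 h to 6 h it was -0.29 ± 0.15 (adjusted p = 0.354). The 6 h call was lost with library size alone (-0.39, adjusted p = 0.0681), and without the first or second 6 h library the value was -1.02 or -0.52 and still called (adjusted p = 0.00475 and 0.0396). A call at 3 h was gained with DESeq2 (-0.48, adjusted p = 0.0400) and without a filter (-0.46, adjusted p = 0.00198).

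Fgf4 showed the largest change of the 8. It lies at chr7:144847367-144865243 on the plus strand, and its transcript has a 3′ UTR of 2302 bases with 6 ATTTA words, the most of the 8. Its mRNA was at 192 and 183 CPM in control, 142 and 125 at 3 h, then 75.2 and 76.9 at 6 h. The groups did not overlap, and each step was larger than the gap between replicates. At 6 h Fgf4 was 2.47-fold lower than control, a log2 fold change of -1.30 ± 0.12 (SE; adjusted p = 0.000309), rank 91 of 12755 genes by p and only 2.42% of genes had a lower value.

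From 3 h to 6 h Fgf4 fell by 0.81 on the log2 scale (SE 0.12; adjusted p = 0.0155). At 3 h against control the value was -0.49 ± 0.12 (SE; adjusted p = 0.0506), on the edge of the threshold, and it passed with 8 of the 17 alternative settings, among them DESeq2 (adjusted p = 0.00249). Relative to Pou5f1 in the same library, Fgf4 counts were 1.26 and 1.35 times as many in control, 0.952 and 0.899 at 3 h, then 0.552 and 0.615 at 6 h. These ratios did not overlap between groups. The 6 h call against control held in all 17 alternative settings (-1.33 to -0.95, adjusted p at most 0.00527), whereas the call between times was lost without any 1 of the 3 h or 6 h libraries (-0.91 to -0.72, adjusted p = 0.0989 to 0.173).

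Tdgf1 lies at chr9:110939603-110946158 on the minus strand. Its mRNA was at 153 and 125 CPM in control, 171 and 138 at 3 h, then 117 and 103 at 6 h. Control and 3 h overlapped, and both 6 h libraries lay below all others. The log2 fold change was 0.15 ± 0.15 (SE; adjusted p = 0.584) at 3 h, -0.34 ± 0.15 (adjusted p = 0.132) at 6 h and -0.49 ± 0.15 (adjusted p = 0.146) from 3 h to 6 h. The last value was called only when no filter on low counts was used (adjusted p = 0.0207).

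In structure the 8 genes were short of exons, with 1 to 6 against a median of 9 over the 11578 genes with a matched coding transcript. Of those genes 27.8% had at most 5 exons, as did all members but Tdgf1. The 2 members called at 6 h against control differed in their 3′ UTRs: Utf1 had 0 ATTTA words in 122 bases and Fgf4 had 6 in 2302. Sox2 had 4 in 1086 bases. An ATTTA word was found in 66.2% of the genes with a 3′ UTR. Per kb of 3′ UTR, Sox2 had 3.68 such words, Nanog 2.78 and Fgf4 2.61, against a median of 1.21 over those genes.

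Neighbouring transcripts could add reads to some members, because whether counting used the strand is not given in the sources used here. Exons of antisense transcripts overlap Pou5f1 (Gm19553), Sall4 (Gm14261) and Lin28a (Gm13061), and none of these transcripts has a row in the files. Sox2 lies inside the same-strand gene Sox2ot without sharing exons. Nanog and Tdgf1 have processed pseudogenes that have no row, so their counts are uncertain where reads match both copies.

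By distance of the centred log2 CPM over the 6 libraries, the 3 of 5305 candidate genes most like Sox2 were Zfp280b (0.127), Irf2bp2 (0.196) and the pluripotency factor gene Klf4 (0.214). Klf4 stood at 238 and 236 CPM in control, 347 and 380 at 3 h, then 216 and 245 at 6 h. It was called higher at 3 h (0.62, adjusted p = 0.0215) and lower from 3 h to 6 h (-0.66, adjusted p = 0.0294), and both calls were lost without either 3 h library (adjusted p = 0.0906 and 0.156, then 0.143 and 0.223), the latter also without either 6 h library (adjusted p = 0.183 and 0.162) or with library size alone (adjusted p = 0.0638). The genes most like Utf1 were Trim28 (0.141), Ifi30 (0.146) and Fth1 (0.154), and those most like Fgf4 were Gcn1l1 (0.169), Hsp90b1 (0.243) and Slc38a2 (0.264). The distance between Utf1 and Fgf4 was 0.841. Pou5f1 and Lin28a were the closest pair among the 8 (0.350).

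Beside the core factors stood 28 other transcription factors and coregulators of the network, all tested. At 3 h 7 were called higher and 2 lower, at 6 h 8 and 9, and from 3 h to 6 h 0 and 3. The medians were 0.19, 0.03 and -0.15. Of all 12755 genes, 3.60% were higher and 1.30% lower at 3 h, 14.8% and 14.3% at 6 h, and 0.455% and 1.18% between times. The counts of this list and of every list below are to be read beside these shares, and no list was tested as a set. The 4 with the smallest p at 6 h were the homeobox gene Gbx2 (-2.11 ± 0.12; SE), the naive-state factor gene Tfcp2l1 (-1.51 ± 0.13), Zfp42, which encodes REX1 (-0.98 ± 0.10), and Zfp281 (1.08 ± 0.12), with adjusted p-values of 4.1e-05, 0.000265, 0.000509 and 0.000751. Gbx2 went from 217 and 233 CPM in control to 164 and 154 at 3 h and 48.9 and 54.9 at 6 h. Scaling by library size alone gave 10 higher and 4 lower at 6 h and a median of 0.39, so the balance of directions depended on the scaling.

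SALL4's paralogs and the NuRD subunits formed a list of 15, all tested. At 3 h 2 were called higher and 0 lower, at 6 h 3 and 3, and from 3 h to 6 h 0 and 0. The 3 h calls were Sall3 (0.98, adjusted p = 0.0418) and Sall1 (0.58, adjusted p = 0.0435). Both were lost with only the 4 compared libraries (adjusted p = 0.0790 and 0.0611) and without either 3 h library (adjusted p = 0.0670 and 0.217 for Sall3, 0.138 and 0.233 for Sall1), and of 17 settings Sall3 lost its call in 9 and Sall1 in 7, leaving out either 6 h library or the second control among them. While Sall4 was not called, its paralogs Sall3 (1.52 ± 0.22; SE; adjusted p = 0.00228), Sall2 (1.85 ± 0.35; adjusted p = 0.00652) and Sall1 (0.47 ± 0.13; adjusted p = 0.0261) rose at 6 h. The difference between Sall4 and each paralog was not tested. Sall2 was scarce, at 2.15 and 3.91 CPM in control and 8.67 and 12.5 at 6 h. The NuRD subunit gene Mta2 fell (-0.62 ± 0.16; adjusted p = 0.0198). Without the second 6 h library the calls of Sall2, Mta2 and Sall1 were lost (1.55, -0.50 and 0.33, adjusted p = 0.0545, 0.137 and 0.190), that of Mta2 also without the second control (-0.46, adjusted p = 0.0786), and that of Sall1 also without either control (0.46 and 0.49, adjusted p = 0.0661 and 0.0571). Without TMM scaling, by library size alone, 3 of the list were higher at 6 h and 0 lower, and the median, -0.16 on the TMM scale against 0.04 for all genes, became 0.20 against 0.40.

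Around LIN28A, 13 of 14 genes of let-7 biogenesis and its targets were tested. None was called at 3 h, and at 6 h 0 were higher and 3 lower: Mycn (-1.33 ± 0.13; SE; adjusted p = 0.000509), Dgcr8 (-1.37 ± 0.30; adjusted p = 0.0117) and Dicer1 (-0.67 ± 0.17; adjusted p = 0.0194). DGCR8 and DICER1 both take part in microRNA processing, and Mycn is an oncogene that is on the list of OCT4 and SOX2 targets too. The call of Dgcr8 was lost without the first 6 h library (-1.08, adjusted p = 0.0802), and that of Dicer1 without the second control or either 6 h library (-0.70 to -0.50, adjusted p = 0.0748 to 0.112). By library size alone 2 were higher and 2 lower, and the list's 6 h median moved from -0.19 to 0.16. The 2 lower genes were then Dgcr8 and Mycn, and Dicer1 was not called (-0.32, adjusted p = 0.183).

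Of 33 further genes known as targets of OCT4, SOX2 and NANOG, 32 were tested, some of them on other lists as well. At 3 h 1 was called higher and 1 lower, at 6 h 4 and 11, and from 3 h to 6 h 0 and 3, with a median of -0.19 at 6 h. Beside Mycn, the genes with the smallest p were the growth factor gene Bmp4 (-1.03 ± 0.11; SE; adjusted p = 0.000772), the NODAL inhibitor gene Lefty1 (-1.68 ± 0.29; adjusted p = 0.00487) and Spp1 (-0.55 ± 0.10; adjusted p = 0.00546). Mycn was not called at 3 h and stood at 140 and 175 CPM in control, 164 and 167 at 3 h, then 63.3 and 62.4 at 6 h. Spp1 lost its call without the second 6 h library (-0.51, adjusted p = 0.0516) and with library size alone (-0.20, adjusted p = 0.151). With library size alone the 6 h counts became 9 higher and 3 lower and the median 0.17, so neither the balance nor the sign of the median held across scalings.

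**Figure D4:**
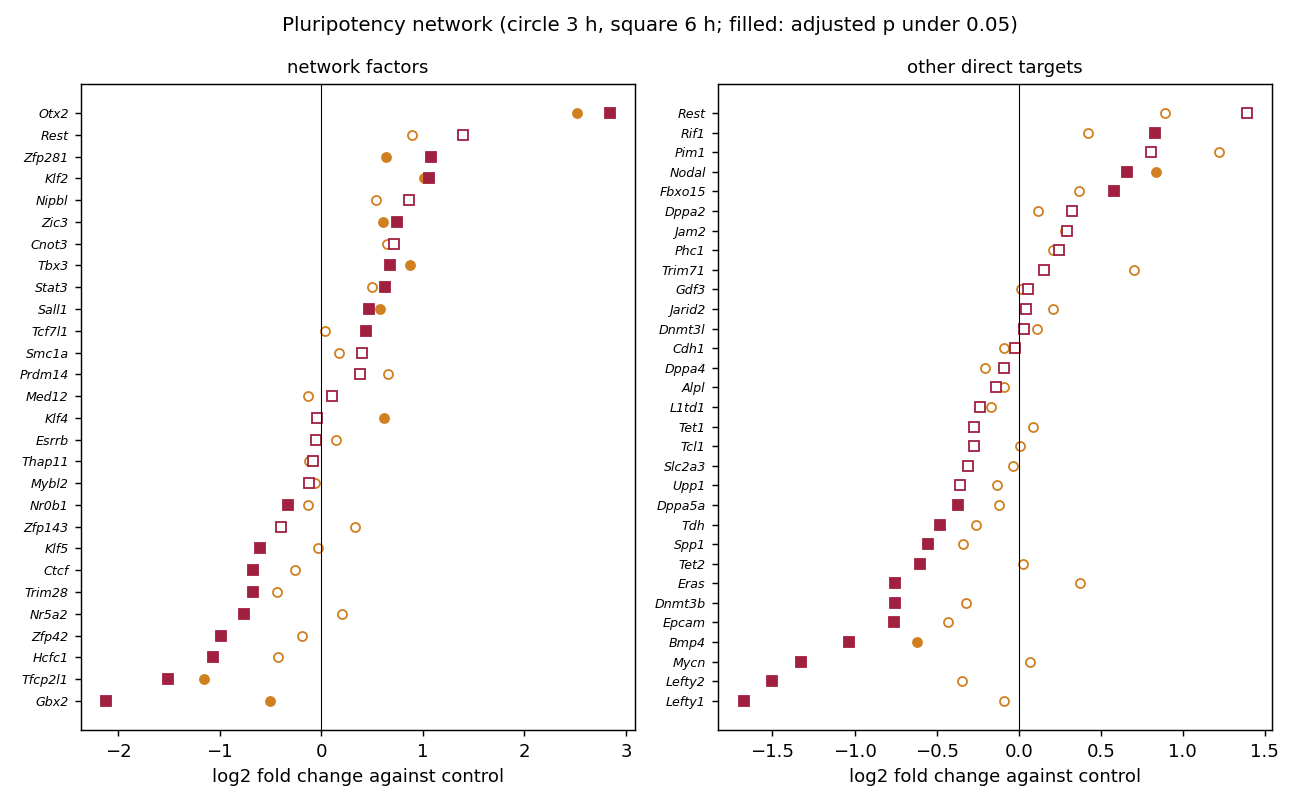
Log2 fold change against control on the TMM scale for the other network factors and the other OCT4, SOX2 and NANOG target genes, ordered by the 6 h value; circles are 3 h, squares 6 h, and filled symbols passed an adjusted p of 0.05. Gbx2 and Tfcp2l1 lie lowest among the factors and Lefty1 among the targets; Dppa3, with 0 counts in both controls, is not drawn.

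FGF4 acts through FGF receptors and the ERK cascade, whose feedback inhibitors are the Sprouty genes. All 20 genes of this list were tested; at 3 h 2 were called higher and 0 lower, at 6 h 2 and 6, and from 3 h to 6 h 0 and 4. Spry4 went from 335 and 348 CPM in control to 269 and 295 at 3 h and 98.8 and 76.8 at 6 h, a log2 fold change at 6 h of -1.96 ± 0.14 (SE; adjusted p = 0.000104). Spry2 was at 122 and 114 CPM in control, 174 and 169 at 3 h, then 62.0 and 51.3 at 6 h (-1.06 ± 0.13 at 6 h; adjusted p = 0.00126). Spry1 fell by 0.64 (SE 0.14; adjusted p = 0.0119), a call lost without the first 6 h library (-0.55, adjusted p = 0.0862) and with library size alone (-0.29, adjusted p = 0.156). The receptor gene Fgfr2 rose from 0.741 and 5.74 CPM to 21.8 and 23.2 at 6 h (2.94 ± 0.60; adjusted p = 0.00863). Its size rests on the controls: without the first or second it was 1.97 or 4.92, called either way (adjusted p = 0.00137 and 9.67e-05). With library size alone the 6 h counts were 2 higher and 2 lower, the latter being Spry2 and Spry4, and the list's median moved from -0.29 to 0.06.

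TDGF1 helps NODAL signal through activin receptors and SMAD2 and SMAD3. Of 18 genes of this list 16 were tested; at 3 h 1 was called higher and 0 lower, at 6 h 3 and 3, and from 3 h to 6 h 0 and 2. Nodal rose from 42.7 and 51.0 CPM in control to 86.8 and 80.4 at 3 h (0.84 ± 0.14; SE; adjusted p = 0.0156) and was at 75.5 and 72.5 at 6 h (0.66 ± 0.14; adjusted p = 0.00929). Skil, which encodes a SMAD co-repressor, and Foxh1, which encodes a SMAD partner, also rose at 6 h (0.80 ± 0.15 and 1.20 ± 0.29; adjusted p = 0.00576 and 0.0172), beside the fall of Lefty1 given above. The call of Skil was lost without the second 6 h library (0.71, adjusted p = 0.0542), and those of Nodal and Foxh1 without either 6 h library (Nodal 0.63 and 0.69, adjusted p = 0.0579 and 0.0511; Foxh1 1.07 and 1.32, adjusted p = 0.104 and 0.0624). Nodal at 3 h was not called without either 3 h library (0.78 and 0.89, adjusted p = 0.113 and 0.0832). Library size alone gave 5 higher at 6 h and 1 lower, and the list's median moved from -0.06 to 0.29.

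**Figure D5:**
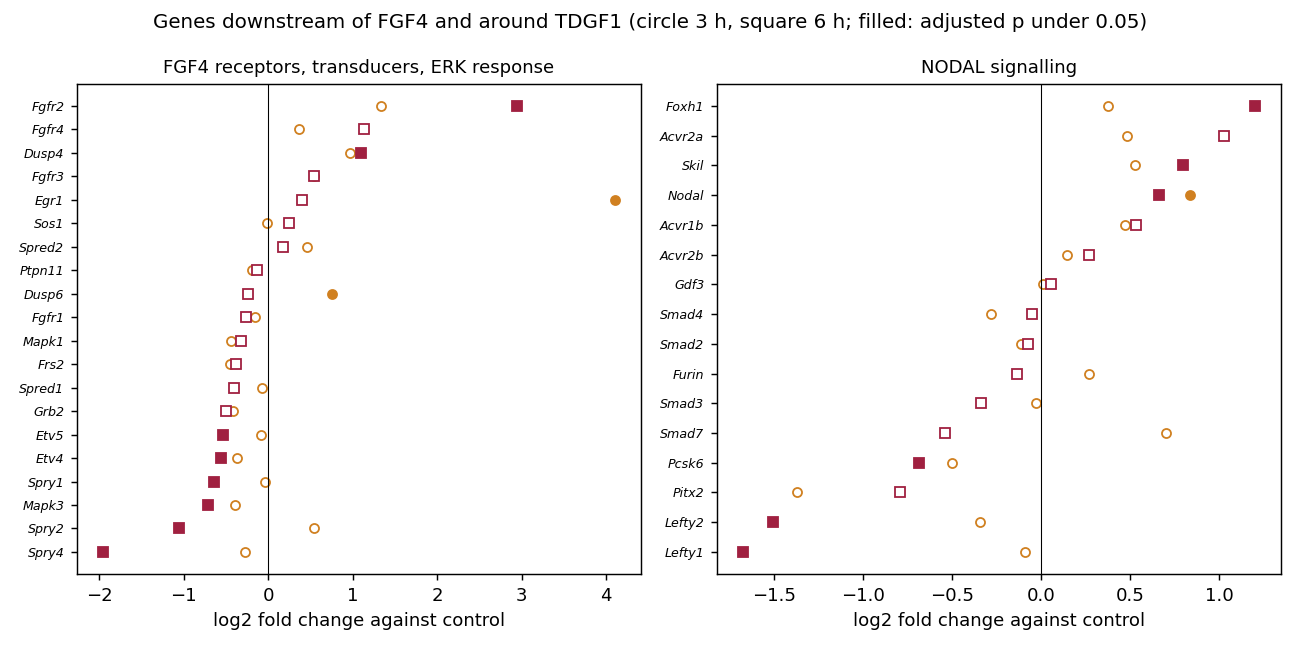
Log2 fold change against control on the TMM scale for genes downstream of FGF4 and genes of NODAL signalling, ordered by the 6 h value; circles are 3 h, squares 6 h, and filled symbols passed an adjusted p of 0.05. Spry4 and Spry2 lie lowest at 6 h among the FGF genes, and Lefty1 among the NODAL genes.

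The relatives of Pou5f1 and Sox2 gave 19 tested genes of 20. At 3 h 1 was called higher and 0 lower, at 6 h 3 and 4, and from 3 h to 6 h 1 and 1. Sox2 was highest at 3 h, whereas Sox21 went from 10.5 and 11.2 CPM in control to 36.3 and 30.8 at 3 h and 73.2 and 83.3 at 6 h (2.85 ± 0.16 at 6 h; SE; adjusted p = 4.29e-05). Sox3 rose at 6 h (2.29 ± 0.36; adjusted p = 0.00354), while Sox7 (-2.95 ± 0.21; adjusted p = 0.000104) and Sox15 (-0.78 ± 0.14; adjusted p = 0.00487) fell. Without the first or second control library the Sox3 value was 1.72 or 3.00, called either way (adjusted p = 0.00369 and 0.000572), and Sox15 lost its call without the second 6 h library (-0.68, adjusted p = 0.0511). With library size alone the 6 h counts were 5 higher and 3 lower, and the list's median moved from 0.33 to 0.68.

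Markers of other lineages were read beside these changes. The summed level of germ-layer markers, 12 of 12 in the files, was 347 and 331 CPM in control, 292 and 332 at 3 h, then 149 and 158 at 6 h, and Tubb3 made up most of it in control and at 3 h. Over the 8 of these markers that passed the filter, the 6 h median on the log2 scale was 0.43, with Nes and Tbx6 called higher and Tubb3 lower. Primitive-endoderm markers, 10 of 11, summed to 105 and 103, 100 and 105, and 59.2 and 55.8 CPM. Their 9 tested members had a median of 0.66 at 6 h, with 0 called higher and 2 lower, Sox7 and Lama1. The Lama1 call (-0.63, adjusted p = 0.0342) was lost in 7 of 17 settings, among them library size alone, the replicate block and the 4 compared libraries alone. Trophectoderm markers, 10 of 11, summed to 62.3 and 79.6, 64.6 and 62.9, and 56.8 and 62.4. Of the 8 tested, 3 were called higher at 6 h and 1 lower, with a median of -0.15. Primed-epiblast markers, 6 of 6, summed to 155 and 102, 106 and 117, and 106 and 110, and Dnmt3b was the largest of them. All 5 tested were called at 6 h, Otx2, Zic2 and Sox3 higher and Pou3f1 and Dnmt3b lower, with a median of 2.29. Fibroblast markers, 9 of 11, summed to at most 18.9 CPM and 2-cell markers, 4 of 13, to at most 6.30 CPM in any library. No marker on these lists was at 0 in all 6 libraries. The falls of the germ-layer and endoderm sums and of the mitochondrial share ran beside the 6 h falls of Utf1 and Fgf4; their part in those results was not tested.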

How the data were processed

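Each of 6 libraries (2 control, 2 at 3 h, 2 at 6 h) has a table of raw gene counts as deposited by the authors. Per the submitters' processing notes the genome build was mm10; the aligner, counter, strandedness and any use of molecular identifiers are not given in the sources used here. Groups and replicate numbers come from the sample titles.

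From these counts, edgeR's filterByExpr with a minimum of 10 counts (at the median depth) in 2 libraries and 15 in total kept 12755 of 17485 genes. edgeR 4.0.16 in R 4.3.3 was fitted with TMM scaling and group means over all 6 libraries (3 residual degrees of freedom), and its two-sided quasi-likelihood test was adjusted after Benjamini and Hochberg, comparison by comparison, with calls at an adjusted p under 0.05. Library totals of 9385447 to 27351079 make 3 counts, the floor used for detection, worth 0.0989 to 0.366 CPM; that floor covers counting error only. Errors are SEs of the fit, and intervals cover 95%. The fit was tested on simulated counts in repeated runs, and in some of them the share of false calls was above the nominal rate.

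The genes named are the 8 members, up to 4 per list with the smallest p at 6 h among those called against control, and the 3 most alike genes of each called member. Dnmt3b is named as the largest primed-epiblast marker. Members, gene lists and tests were chosen with earlier results of these data known, among them the patterns of Pou5f1, Sox2 and Nanog, so these are no independent support. Lengths and coordinates come from GENCODE M21 and promoters from RefSeq, both on GRCm38. Alternatives were 3 other scalings, 2 other filters, DESeq2 1.42.0, limma-voom 3.58.1, a replicate block, the 4 compared libraries alone, removal of mitochondrial genes, thinning to equal depth and leaving out each library. Same-numbered libraries deviated together between control and 3 h (correlation over 7334 genes 0.23) but not between 6 h and control (-0.05) or 6 h and 3 h (0.01), and nothing in the labels ties the numbers together, so they were not used as pairs.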

Additional observations from a re-analysis of the deposited data

Results flagged for a closer look

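Sox2 stood out because its mRNA differed between the 2 treatment times when 6 h was tested directly against 3 h, with a log2 fold change of -0.727412 (adjusted p = 0.0106 by edgeR); both 6 h libraries were below both 3 h libraries. Fgf4 did so too, at -0.814627 (adjusted p = 0.0155), again with both 6 h libraries below both 3 h libraries. Sox2 came down from a level above control. Against control, Fgf4 was called lower at 6 h (-1.30) and was not called at 3 h (-0.49, adjusted p = 0.0506). Both calls between times were lost when any 1 of the 3 h or 6 h libraries was left out.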

How the results depend on the processing

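Each member value was recomputed under 17 settings per comparison, 408 values in all: 357 kept direction and side of the threshold, 11 lost their call (10 on leaving out a library), 11 gained one and 29 changed sign. For the other named genes, only values already called were recomputed, 1169 in all, so none of them could gain a call. Of these, 151 lost their call (111 on leaving out a library) and 0 changed sign. Member values were recomputed whether called or not, so the sign changes of members and of the other genes cannot be compared. Genes called at 3 h numbered 625, against 1373 with library size alone, 1816 without a filter, 1447 with DESeq2, 218 with the 4 compared libraries and 108 to 1033 with 1 library left out. At 6 h they numbered 3704, or 1313 to 3578 with 1 library left out. From 3 h to 6 h there were 209, against 1063 without a filter, 688 with DESeq2, 508 with limma-voom, 563 with the 4 compared libraries, 126 with the replicate block, and 14 to 595 with 1 library left out. The cause was not tested. The share of calls that were higher was 73.4%, 50.8% and 27.8% in the 3 comparisons with TMM and 95.8%, 88.1% and 56.5% with library size alone.

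Members called at 3 h numbered 1, against 2 with RLE or upper-quartile scaling, the stricter filter, limma-voom, mitochondrial genes removed or libraries thinned, 3 without a filter or with DESeq2, and 0 to 1 with 1 library left out; from 3 h to 6 h they numbered 2, against 3 without a filter and 0 to 2 with 1 library left out. At 6 h they numbered 2 in every setting run, but with library size alone the 2 were Sox2, higher, and Fgf4, lower. The replicate block changed no member's call (1, 2 and 2 called); with it Pou5f1 at 3 h was 0.00184.

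Values changed sign as follows, none of them called except Sox2 at 6 h. By library size alone the values at 3 h were 0.124 for Lin28a, 0.226 for Pou5f1 and 0.150 for Sall4; at 6 h 0.190 for Lin28a, 0.210 for Pou5f1, 0.246 for Sall4, 0.0160 for Tdgf1 and 0.306 for Sox2 (adjusted p = 0.0361); and from 3 h to 6 h 0.0655 for Lin28a and 0.0968 for Sall4. Pou5f1 at 3 h was 0.00212 without a filter, 0.0233 with the stricter filter, 0.00566 with the 4 compared libraries and 0.0293 with libraries thinned. With 1 library left out, the 3 h values ran from -0.245 to 0.0214 for Lin28a, from -0.959 to 0.158 for Nanog, from -0.0772 to 0.0798 for Pou5f1, from -0.255 to 0.118 for Sall4 and from -0.0148 to 0.302 for Tdgf1. The 6 h values ran from -0.292 to 0.0867 for Sall4 and from -0.144 to 0.05003 for Sox2, and those from 3 h to 6 h ran from -0.187 to 0.0771 for Lin28a, from -0.866 to 0.247 for Nanog and from -0.213 to 0.126 for Sall4. With 63 to 153 counts per library, depth limits what can be said of Nanog.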

Other observations

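Single marker genes of other lineages were called on the TMM scale, in both directions. Tubb3, a neuronal tubulin gene, went from 262 and 266 CPM in control to 190 and 208 at 3 h and 75.1 and 68.3 at 6 h (-1.88 ± 0.12 at 6 h; SE; adjusted p = 5.13e-05). The other called genes of its list were higher at 6 h and scarce: Nes, of neural progenitors, went from 3.63 and 1.95 CPM in control to 8.44 and 10.7 (1.73 ± 0.34; adjusted p = 0.00733), and the mesoderm factor gene Tbx6 from 0.444 and 0.366 to 1.65 and 2.49 (2.31 ± 0.65; adjusted p = 0.0285). The call of Nes was lost without the second 6 h library (adjusted p = 0.0612), and that of Tbx6 without any 1 of the control or 6 h libraries (adjusted p = 0.0690 to 0.182). The trophectoderm keratin gene Krt8 fell at 6 h (-1.12 ± 0.18, adjusted p = 0.00379), against 3 scarce factor genes of its list called higher. Gata3 rose from 1.56 and 0.611 CPM to 6.13 and 7.13 (2.52 ± 0.44, adjusted p = 0.00479). Without the first or second control the Gata3 value was 3.42 or 2.09. Tfap2c (1.19 ± 0.26, adjusted p = 0.0119) and Tfap2a (2.13 ± 0.52, adjusted p = 0.0178) rose too. Their calls were lost without the second 6 h library (1.12 and 1.88), and that of Tfap2a also without the first control (1.81) or with limma-voom. Among primed-epiblast markers, Otx2 (2.84 ± 0.53; adjusted p = 0.00605) and Zic2 (2.42 ± 0.43; adjusted p = 0.00506) rose at 6 h and Pou3f1 (-1.55 ± 0.27; adjusted p = 0.00504) fell. The controls held 12 and 2 counts of Otx2 and 93 and 16 of Zic2. Without the first control the values were 4.16 and 3.67, both still called. Without the second control Otx2 was 2.33, and over the 17 settings Zic2 ran from 1.86 to 3.67. Pou3f1 was at 60.4 and 31.4 CPM in the controls, and its 6 h value was -0.99 without the first and -1.93 without the second.

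Chosen after their values were seen, Sox2ot, the noncoding gene around Sox2, was higher at 6 h by 1.58 ± 0.38 on the log2 scale (SE; adjusted p = 0.0159), and at 3 h its value was 1.01 ± 0.39 (adjusted p = 0.152). Dppa3 and Sox9 had 0 counts in both controls. With each control library set at 3 counts, Dppa3 was at least 5.75-fold higher at 6 h and Sox9 at least 5.25-fold higher, and the 6 h medians of their lists, -0.19 and 0.33, were the same with these bounds.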
